A study of Rattus norvegicus with 6 samples.

Results

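Haem metabolism and beta-globin were described through 8 genes, Hmox1, Hmox2, Blvra, Blvrb, Alas1, Alas2, Fech and Hbb, out of 15645 genes that could be named on the array. Every probe whose accession belongs to 1 of these genes was taken, which gave 12 probes, and all 12 were well above background on all 6 arrays. The genes were chosen by their place in haem metabolism with the measured log2 differences of this same contrast in view, so the choice counts as selected on those values, and their values are a description and carry no test. The treated group comprised 3 male Sprague-Dawley rats given 1,2-dibromoethane, a halogenated solvent and former fumigant, at 75 mg/kg/day, and the control group 3 male rats of the same strain given corn oil. Dosing lasted 4 weeks in both groups, in animals bought at 5 weeks of age and kept on a basal diet. Total RNA of the renal cortex of each rat was hybridised to 1 single-colour array, so each array is 1 animal. The strain is outbred.

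Haem, the iron porphyrin of haemoglobin and the cytochromes P450, is made from glycine and succinyl-CoA in a pathway that starts and ends in the mitochondrion. It is broken down by haem oxygenase to biliverdin, carbon monoxide and iron, and biliverdin is then reduced to bilirubin. The renal cortex makes haem for its own enzymes and takes up filtered haem proteins in the proximal tubule, where Hmox1 is known to be low at rest and inducible. Globin and Alas2 transcripts, in contrast, belong to red cell precursors and reticulocytes, which reach a kidney sample with its blood.

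Levels are given as log2 of the processed signal relative to the 75th percentile of the same array, and differences as the dibromoethane mean minus the control mean on that scale. Probes bind with different strength, so a level is compared between arrays and not between genes. Between 59.2% (dibromoethane replicate 2) and 67.8% (dibromoethane replicate 1) of probes were well above background, and 0 were saturated. The arrays lay on 3 slides. Slide 1 held dibromoethane replicate 2 and control replicates 1 and 2, slide 2 held dibromoethane replicate 1 and control replicate 3, and slide 3 held dibromoethane replicate 3 alone. Transcripts typical of liver stood apart: their summed signal was 20.2 to 48.1 times the 75th percentile on dibromoethane arrays, highest in replicate 1, against 12.4 to 17.8 on control arrays, lowest in replicate 1. The 10 liver markers measured were all higher in the treated mean, while Tat and Cps1, enzymes of the hepatocyte, were above background on 0 arrays. Of the 10, Apoa2, Fgg and Serpina1 were well above background on 3 dibromoethane arrays but 2 control arrays. They were thus counted through the dibromoethane group alone, where they are high. The 10 proximal tubule markers were well above background on all arrays, as the label of renal cortex calls for, and their summed signal was 1240 to 1270 on dibromoethane arrays and 1340 to 1430 on control arrays. The part of these shifts in the values below was not tested.

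Among the 8 genes, Hmox1 and Alas1 were higher in every treated rat than in any control rat, and Alas2 and Hbb were lower in every treated rat. The levels of Hmox2, Blvra, Blvrb and Fech overlapped between the groups. By probe, 5 of 12 did not overlap, 2 higher and 3 lower, where 19.3% of all 37274 probes tested did not overlap (7.57% higher and 11.8% lower); by gene the count was 4 of 8, where 19.5% of features did not overlap. None of the 8 genes passed the limma test at an adjusted p of 0.05, which 0.0311% of the 28961 tested features did (9 features, 0.0242% higher and 0.00691% lower). With unadjusted limma p-values, 4 of 8 genes lay under 0.05, 2 higher and 2 lower, and 11.2% of all features (4.53% higher and 6.64% lower). Since this contrast chose the genes, nothing is read from these counts.

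**Figure D1:**
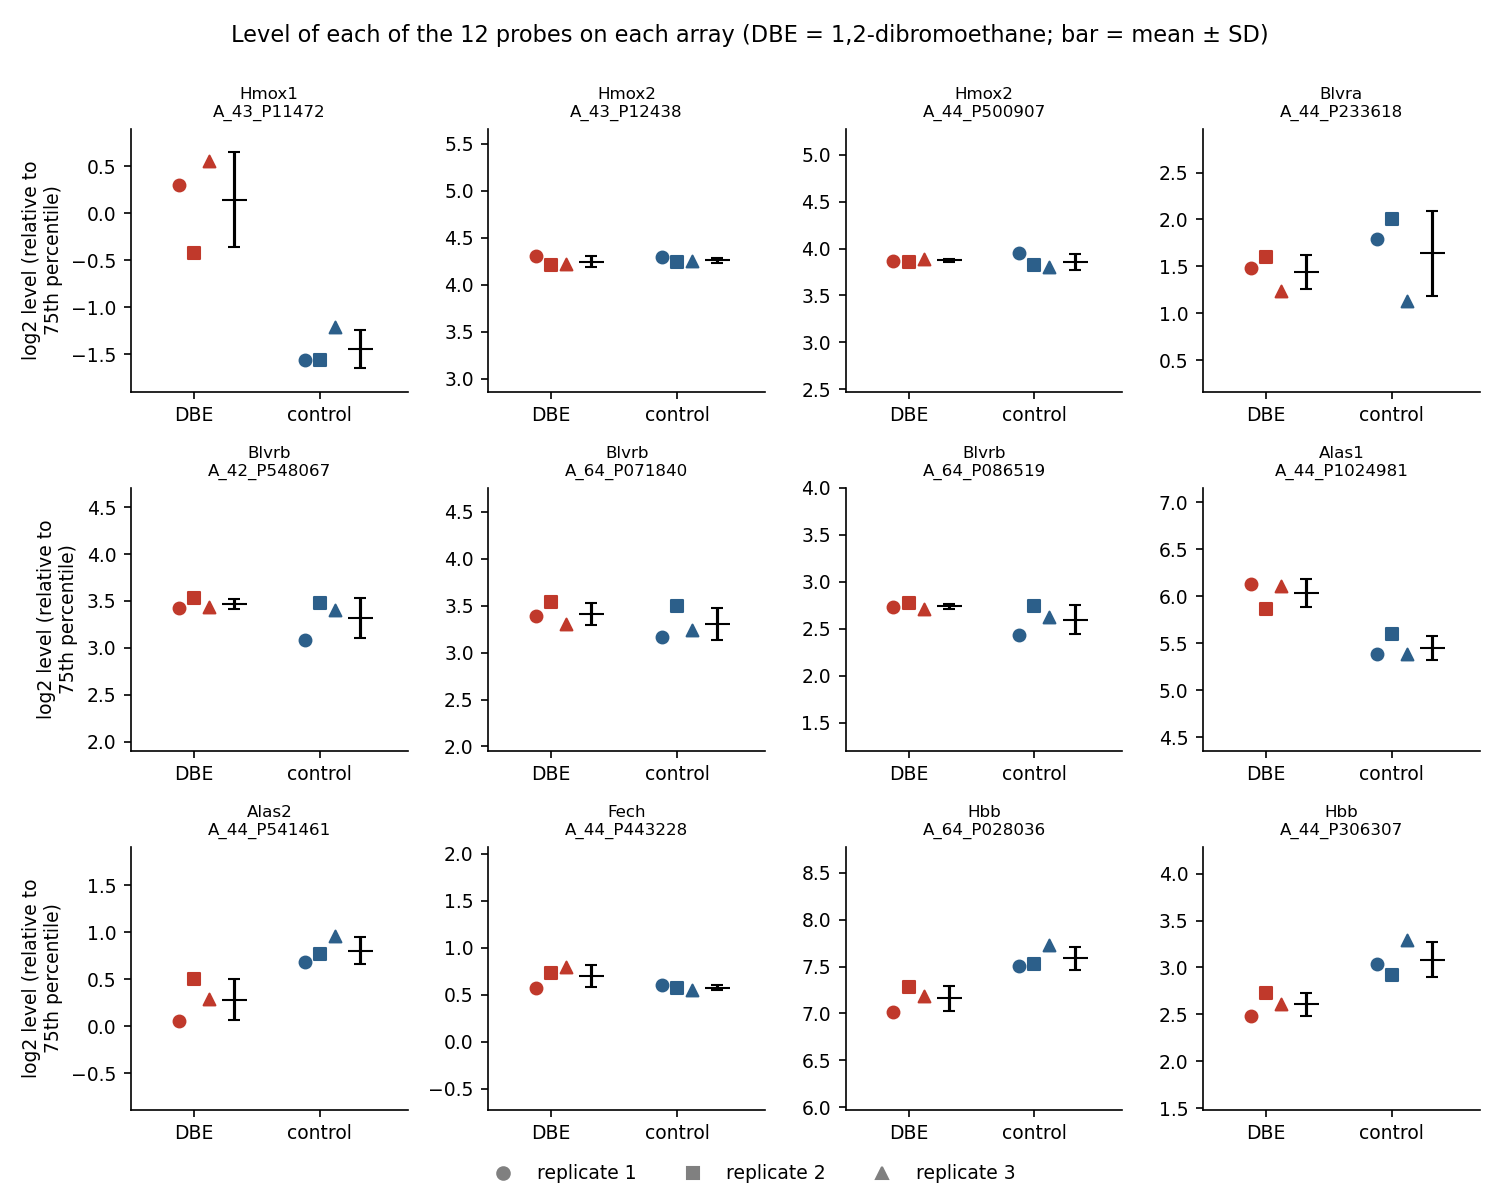
Log2 level of each of the 12 probes of the 8 genes on each array, relative to the array's 75th percentile, with 3 dibromoethane (DBE) arrays left of 3 control arrays; marker shapes are replicate numbers and bars are the mean ± SD. The vertical axes span the same number of log2 units but are centred on different levels. Hmox1 and Alas1 are higher on all dibromoethane arrays, Alas2 and both Hbb probes are lower, and the other probes overlap.

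Hmox1, the inducible haem oxygenase that opens the haem ring, differed most of the 8 genes. Its probe read 0.30, -0.42 and 0.56 in dibromoethane replicates 1 to 3, against -1.56, -1.56 and -1.21 in control replicates 1 to 3. Each treated rat was above each control rat, and dibromoethane replicate 2 was the lowest of the treated rats. The means were 0.15 ± 0.51 in treated rats and -1.45 ± 0.20 in control rats (SD, n = 3 each), a log2 difference of 1.59 (SE 0.32), or 3.02-fold. The pooled SD within groups was 0.388, against a median of 0.143 over all tested features, and the spread lay mainly among the treated rats. By size of the difference Hmox1 stood at place 123 of 28961 features. Within slide 1 the difference was 1.14 and within slide 2 it was 1.51, so the treated array was higher on both slides that held both groups. Without the 2 arrays that were lowest and highest in liver transcripts it was 1.46.

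Hmox2, the constitutive haem oxygenase, was nearly level. Its brighter probe read 4.31, 4.21 and 4.22 in dibromoethane replicates 1 to 3, against 4.29, 4.24 and 4.25 in control replicates 1 to 3, a log2 difference of -0.01 (SE 0.04). The other probe read 3.87, 3.86 and 3.89 in treated rats and 3.95, 3.82 and 3.80 in control rats, a difference of 0.02 (SE 0.05). Both probes thus showed overlapping groups, and the pooled SD of the brighter probe, 0.0439, was small beside the 0.143 of the typical feature.

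Blvra, biliverdin reductase A, which turns biliverdin into bilirubin, varied more among control rats than between the groups. Its level was 1.48, 1.60 and 1.24 in dibromoethane replicates 1 to 3, against 1.79, 2.00 and 1.13 in control replicates 1 to 3. The log2 difference was -0.20 (SE 0.28), and control replicate 3 was the lowest of all 6 rats. The difference was -0.30 within slide 1 and 0.36 within slide 2, which holds control replicate 3, so its sign depended on the slide. Blvrb, biliverdin reductase B, a flavin reductase that is abundant in red cells, read 3.43, 3.53 and 3.44 in treated rats, against 3.08, 3.48 and 3.40 in control rats on its brightest probe. The groups overlapped, and the 3 Blvrb probes gave log2 differences of 0.15, 0.11 and 0.14 (SE 0.13, 0.12 and 0.09). Control replicate 1 was the lowest array on each of the 3 probes.

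Alas1, the housekeeping 5-aminolevulinate synthase and the rate-limiting enzyme of haem synthesis outside red cells, was higher in treated rats. Its level was 6.13, 5.86 and 6.11 in dibromoethane replicates 1 to 3, against 5.38, 5.60 and 5.38 in control replicates 1 to 3. The lowest treated rat, replicate 2, was above the highest control rat, also replicate 2. The means were 6.03 ± 0.15 in treated rats and 5.45 ± 0.13 in control rats (SD, n = 3 each), a log2 difference of 0.58 (SE 0.12), or 1.5-fold, beside a pooled SD of 0.141. Within slide 1, which holds both of these replicates, the difference was 0.37, and within slide 2 it was 0.76. The treated array was higher on both slides.

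Alas2, the erythroid isoform of the same enzyme, lay the other way. It read 0.06, 0.50 and 0.29 in dibromoethane replicates 1 to 3, against 0.68, 0.77 and 0.96 in control replicates 1 to 3. All treated rats were below all control rats, with means of 0.28 ± 0.22 in treated rats and 0.80 ± 0.14 in control rats (SD, n = 3 each) and a log2 difference of -0.52 (SE 0.15). The difference was -0.23 within slide 1 and -0.89 within slide 2, so the size moved with the slide and the sign did not. Fech, ferrochelatase, which inserts iron into the porphyrin as the last step, read 0.57, 0.73 and 0.80 in treated rats, against 0.60, 0.57 and 0.55 in control rats. Dibromoethane replicate 1 lay among the control rats and the 2 other treated rats lay above them, for a log2 difference of 0.13 (SE 0.07). Within slide 1 the Fech difference was 0.15 and within slide 2 it was 0.01.

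**Figure D2:**
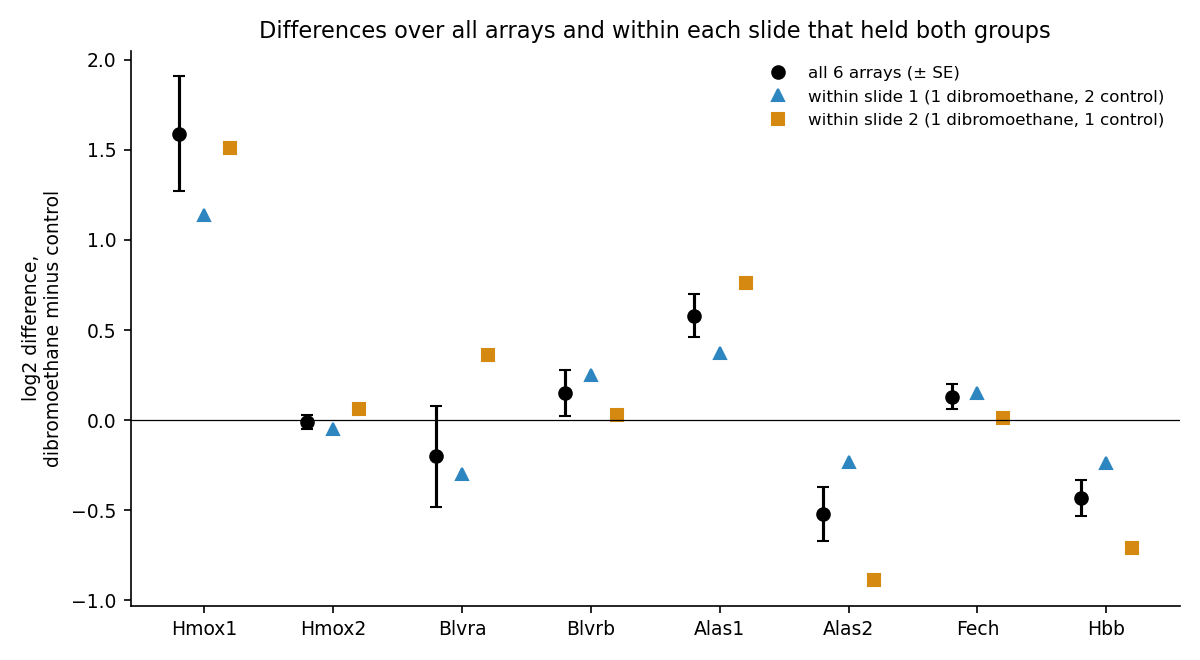
Log2 difference, dibromoethane minus control, of each of the 8 genes over all 6 arrays (black, ± SE) and within slide 1 (triangles) and slide 2 (squares). Hmox1 and Alas1 lie above 0 and Alas2 and Hbb below 0 in all 3 readings, while Blvra is -0.30 in slide 1 and 0.36 in slide 2.

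Hbb, a beta chain of haemoglobin, was lower in treated rats on both of its probes. The brighter probe read 7.02, 7.28 and 7.19 in dibromoethane replicates 1 to 3, against 7.51, 7.53 and 7.73 in control replicates 1 to 3. The dimmer probe read 2.48, 2.73 and 2.61 in treated rats, against 3.04, 2.92 and 3.29 in control rats. On both probes dibromoethane replicate 1 was the lowest and control replicate 3 the highest array, and the groups did not overlap. The log2 differences were -0.43 (SE 0.10) and -0.48 (SE 0.13), or 0.744 and 0.718 of the control level. Within slide 1 they were -0.24 and -0.25, and within slide 2 they were -0.71 and -0.81. In a bulk sample, fewer red cells or reticulocytes in the tissue and less globin RNA per cell cannot be told apart.

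The other globin genes gave values close to those of Hbb. Of the 12 probes of 6 globin genes, Hbb included, that were well above background on all arrays, 10 were lower in every treated rat than in any control rat, with log2 differences of -0.57 to -0.42; over all 37274 probes tested 11.8% were lower without overlap. Hba-a1, an alpha chain, read 7.90, 8.33 and 8.08 in dibromoethane replicates 1 to 3, against 8.53, 8.46 and 8.61 in control replicates 1 to 3 (log2 difference -0.43, SE 0.13). The order of the treated rats was that of Hbb, with replicate 1 lowest and replicate 2 highest. Over these 10 probes the difference ran from -0.28 to -0.11 within slide 1 and from -0.99 to -0.71 within slide 2. The 2 globin probes whose groups overlapped were the dimmer probe of Hba-a3 (0.04, SE 0.37) and the dimmer probe of Hbe2 (-0.31, SE 0.26). Alpha-globin genes resemble each other closely in sequence, as do beta-globin genes, so a probe named for 1 of them may read several, and these probes are not separate measurements. The summed signal of the erythroid markers, which globin dominates, was 248 to 336 times the 75th percentile on dibromoethane arrays and 361 to 400 on control arrays. Their mean log2 level, which weighs each marker alike, overlapped, at 0.12 to 0.52 on dibromoethane arrays and -0.04 to 0.27 on control arrays. Of the 6 erythroid markers tested, 3 were higher and 3 lower in the treated mean, so the sum mainly repeats the globin values. Of the markers of the erythroid precursor, Rhag and Gata1 were above background on 0 arrays. Klf1 was well above background on all 6 arrays on its brighter probe, with a log2 difference of -0.19 (SE 0.27) and overlapping groups. Its other probe had the opposite sign, 0.42 (SE 0.54), also with overlapping groups. That probe was well above background on 3 dibromoethane and 2 control arrays. Both probes of Ahsp were well above background on all arrays.

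The promoters of Hbb, of a second beta chain (Hbb-b1) and of an alpha chain (Hba-a1) are shown because these genes, with beta and alpha chains on different chromosomes, had like profiles over the arrays, and that of Alas2 because it was lower in the same rats. Each is the 250 bases before the start of the gene in RefSeq on the rat assembly GRCr8, read on the gene's strand, with motif letters in capitals. The window of Hbb lies at chr1:167663722-167663971 on the reverse strand, that of Hbb-b1 at chr1:167643521-167643770 on the reverse strand, that of Hba-a1 at chr10:15842581-15842830 on the reverse strand and that of Alas2 at chrX:22895200-22895449 on the forward strand.
Hbb: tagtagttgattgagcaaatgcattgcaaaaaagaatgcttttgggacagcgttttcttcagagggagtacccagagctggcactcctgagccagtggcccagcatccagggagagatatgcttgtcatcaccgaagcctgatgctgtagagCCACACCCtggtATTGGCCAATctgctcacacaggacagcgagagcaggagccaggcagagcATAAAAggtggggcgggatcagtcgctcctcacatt
Hbb-b1: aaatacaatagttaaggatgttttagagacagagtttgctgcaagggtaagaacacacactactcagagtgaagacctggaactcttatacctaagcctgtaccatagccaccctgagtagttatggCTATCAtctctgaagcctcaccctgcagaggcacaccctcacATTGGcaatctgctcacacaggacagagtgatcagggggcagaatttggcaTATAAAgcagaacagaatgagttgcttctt
Hba-a1: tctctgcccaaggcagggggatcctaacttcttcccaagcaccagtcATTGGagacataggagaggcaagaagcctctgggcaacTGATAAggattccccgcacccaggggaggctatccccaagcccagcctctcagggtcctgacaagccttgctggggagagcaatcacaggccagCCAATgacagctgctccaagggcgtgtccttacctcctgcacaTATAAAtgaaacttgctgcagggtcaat
Alas2: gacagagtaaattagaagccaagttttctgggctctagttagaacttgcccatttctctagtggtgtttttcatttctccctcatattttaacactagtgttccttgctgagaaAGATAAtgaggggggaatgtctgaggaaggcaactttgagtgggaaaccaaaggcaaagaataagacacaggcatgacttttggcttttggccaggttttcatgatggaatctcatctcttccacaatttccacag

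All motifs were searched on both strands. The letters for GATA factors were AGATAA or AGATAG as well as TGATAA or TGATAG. The letters CCACACCC stood for the CACCC box, of the kind that KLF1 binds, and the letters CCAAT for the CCAAT box. The TATA-like letters were ATAAAA or TATATA or also TATAAA, and they can overlap each other and the GATA letters. Of all 33469 rat promoters of this length, 27.0% held a GATA motif, 2.84% the CACCC box, 34.0% a CCAAT and 26.7% a TATA-like motif. In the Hbb promoter the CACCC box lay 98 to 91 bases before the start, a CCAAT on each strand at 86 to 82 and 81 to 77, and ATAAAA at 36 to 31. Hbb-b1 held a GATA motif on the reverse strand that began 123 bases before the start, a CCAAT on the reverse strand at 81 to 77 and TATAAA at 30 to 25. Hba-a1 held TGATAA at 165 to 160, CCAAT at 203 to 199 on the reverse strand and at 71 to 67 on the forward strand, and TATAAA at 28 to 23. Alas2 held AGATAA at 136 to 131. These are matches of letters only. Of the 8 genes, 7 had a promoter in the RefSeq table, and Hmox1 is named only.

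A wider list of red cell genes, the other globins included, gave a mixed picture. Of its 30 genes, 23 had a probe and 17 were tested, of which 5 were higher and 12 lower in the treated mean, with a median log2 difference of -0.19 against -0.015 over all features. None of the 17 passed the limma test at an adjusted p of 0.05. With unadjusted limma p-values, 1 higher and 7 lower genes lay under 0.05, against 4.53% and 6.64% of all features. The groups did not overlap for 1 higher and 6 lower genes (background over all features 7.35% higher and 12.1% lower). Of the 7 lower genes all but Rhd were globins, and of the 6 all but Epb42. Globin probes are not separate measurements, so these lower counts mainly repeat the globin values. Of the 17, Hbz, an embryonic alpha-like chain, and Epb42 were well above background on all control arrays but on 1 and 2 dibromoethane arrays, so they entered the test through the control group alone, and with a filter on all 6 arrays the median was -0.08. It was -0.06 with normexp background correction. Ahsp, the chaperone of alpha-globin, overlapped between the groups. Its brighter probe read -0.51, 0.01 and -0.53 in treated rats, against -0.07, -0.97 and -0.27 in control rats, a log2 difference of 0.09. Slc4a1, the band 3 anion exchanger of the red cell, which intercalated cells of the kidney also express, had a difference of 0.02, and Bpgm, which makes bisphosphoglycerate in red cells, had -0.08. Lower values were measured for Epb42, a protein of the red cell membrane skeleton (-0.39), and for Rhd, a Rhesus blood group protein (-0.31). Sptb, a beta-spectrin of the same skeleton, read -3.06, -3.70 and -3.80 in treated rats and -3.57, -3.72 and -3.15 in control rats, a log2 difference of -0.04 (SE 0.29) with overlapping groups.

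**Figure D3:**
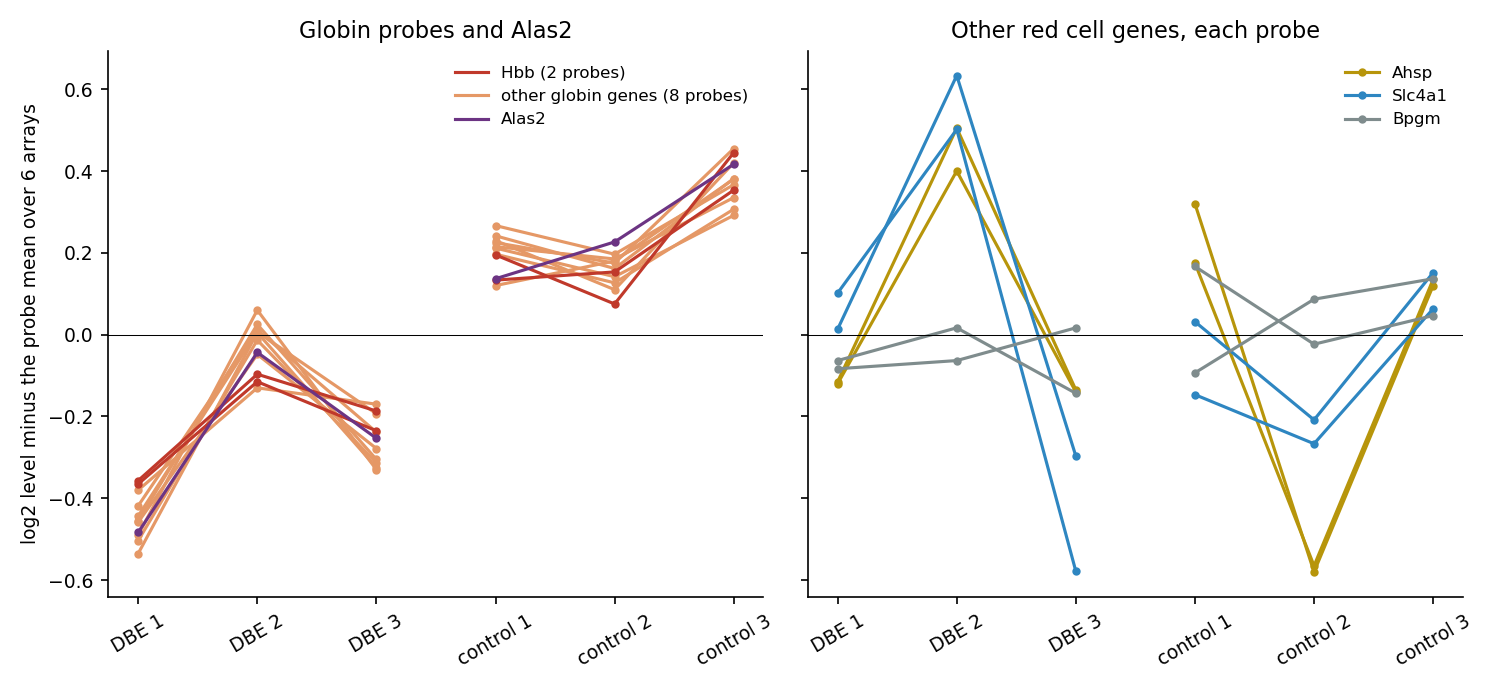
Log2 level minus the probe's mean over the 6 arrays, for the 10 globin probes without overlap and Alas2 (left) and for the probes of Ahsp, Slc4a1 and Bpgm (right), with dibromoethane (DBE) arrays left of control arrays; lines join the values of 1 probe and replicates have no order. Globin and Alas2 lie lower on each dibromoethane array than on any control array, and Ahsp, Slc4a1 and Bpgm overlap.

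The rest of the haem synthesis pathway showed no common direction. Of 12 further genes, all of which were tested, 7 were higher and 5 lower in the treated mean, with a median log2 difference of 0.03, and 0 passed the limma test at an adjusted p of 0.05 (1 higher and 1 lower at an unadjusted p under 0.05). That unadjusted threshold was met by 4.53% of all features as higher and 6.64% as lower. Slc25a39, a mitochondrial carrier that imports glutathione, read 4.11, 4.29 and 4.18 in treated rats and 4.02, 4.0 and 3.95 in control rats, a log2 difference of 0.20. It was the only gene of these 12 whose representative probe did not overlap, where 7.35% of all features were higher without overlap. Urod, which decarboxylates uroporphyrinogen, had the lowest value of the list: 4.93, 5.18 and 4.93 in treated rats against 5.40, 5.53 and 5.13 in control rats, a difference of -0.34. The enzymes between Alas1 and Fech otherwise stayed within -0.13 (Uros) and 0.12 (Alad), and Slc25a38, which imports glycine into the mitochondrion, had 0.01. All of these differences were smaller in size than the 0.58 of Alas1.

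Of the genes of haem uptake, export and scavenging, 10 of 12 were tested, 6 higher and 4 lower, with a median log2 difference of 0.04 and 0 past an adjusted p of 0.05 in limma (3 higher at an unadjusted p under 0.05). In the same test 4.53% of all features were higher at that unadjusted threshold. Slc48a1, the transporter that brings haem out of endolysosomes, read 1.02, 1.19 and 1.42 in treated rats and 0.92, 0.83 and 0.97 in control rats, a log2 difference of 0.30 (SE 0.12) without overlap. Among all features 7.35% were higher without overlap. Within slide 2 the Slc48a1 difference was 0.05. Hpx, haemopexin, and Hp, haptoglobin, are plasma proteins made chiefly in liver that bind free haem and haemoglobin. Hpx read -0.81, -2.02 and -2.55 in dibromoethane replicates 1 to 3, against -4.17, -2.40 and -3.24 in control replicates 1 to 3, and its difference was 1.48 (SE 0.72). Hp had differences of 1.48 and 1.60 from its 2 probes (SE 0.88 and 0.82). Both genes followed the liver transcripts in having dibromoethane replicate 1 highest and control replicate 1 lowest, and overlapped between the groups; the part of the liver transcripts in them was not tested. Cd163, the macrophage receptor for haptoglobin with haemoglobin, was above background on 0 arrays, and no probe was matched to Flvcr1, a haem exporter.

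Iron released by haem oxygenase is stored in ferritin or exported by ferroportin. Of 15 iron handling genes 14 were tested, 6 higher and 8 lower, with a median log2 difference of -0.05 and 0 past an adjusted p of 0.05 in limma (1 higher and 2 lower at an unadjusted p under 0.05). The unadjusted shares over all features were 4.53% higher and 6.64% lower. The ferritin chains Fth1 and Ftl1 had differences of -0.13 (SE 0.07) and -0.17 (SE 0.08), Tfrc, the transferrin receptor, 0.06, and Slc40a1, ferroportin, 0.22 (SE 0.16), all with overlapping groups on the representative probe. A second Fth1 probe, at -0.08 (SE 0.02), was lower in every treated rat. The groups of 2 genes of the list did not overlap, both lower: Slc39a14, a zinc and iron transporter (-0.24, SE 0.08), and Aco1, the cytosolic aconitase that also serves as an iron regulatory protein (-0.21, SE 0.07), where 12.1% of all features were lower without overlap. Ferritin genes have many processed copies, so their probes are uncertain. Hamp, the precursor of hepcidin, the hormone that lowers ferroportin, read -2.02, -3.87 and -1.68 in treated rats and -4.94, -4.53 and -3.71 in control rats. It was well above background on 3 dibromoethane arrays and 2 control arrays, so it entered the test through the dibromoethane group alone. Hamp was the 1 higher gene of the list at an unadjusted limma p under 0.05. Its difference was 1.87 (SE 0.77) with dibromoethane replicate 2 below the highest control rat.

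Hmox1 is known to be repressed by BACH1 and induced by NRF2, the product of Nfe2l2, which KEAP1 holds in check. Of 10 regulators of Hmox1 and Alas1, 9 were tested, 5 higher and 4 lower, with a median log2 difference of 0.02 and 0 past an adjusted p of 0.05 in limma (1 lower at an unadjusted p under 0.05). At that unadjusted threshold 6.64% of all features were lower. Bach1 read -1.91, -1.74 and -1.95 in treated rats and -1.59, -1.49 and -1.57 in control rats on its brightest probe, a log2 difference of -0.32, and its 2 other probes gave -0.22 and -0.26. The groups did not overlap on the first 2 of these 3 probes. Nfe2l2 had -0.13 and Keap1 0.02. Nr1d1, the clock repressor that also limits Alas1, spread widely, from -2.87 to -0.31 in treated rats and from -2.94 to -1.60 in control rats (difference 0.83, SE 0.85), and Ppargc1a, a coactivator of Alas1 in mouse liver, had -0.12. On the representative probes Bach1, Ppargc1a and Mafk, a small partner of BACH1 and NRF2 (-0.08), were the 3 genes of the list without overlap, all lower. Over all features 12.1% were lower without overlap and 7.35% higher.

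The enzymes that NRF2 is known to induce had no common direction. Of 10 such genes 8 were tested, 4 higher and 4 lower, with a median log2 difference of 0.01, and 0 passed in limma at an adjusted p of 0.05 or at an unadjusted p under 0.05. Nqo1, a quinone reductase, had 0.46 and 0.81 from 2 probes, and Gclc, the catalytic subunit of glutathione synthesis, had -0.88 and -0.84. Txnrd1, thioredoxin reductase, gave -0.10, 0.15, 0.49 and 0.05 from 4 probes, which differ in sign. Srxn1, sulfiredoxin, had -0.07, and it and Gclc were the 2 genes of the list without overlap on the representative probe, both lower. Over all features 12.1% were lower without overlap. The second Gclc probe overlapped between the groups. Other probes were higher in every treated rat for Nqo1 (0.81), Txnrd1 (0.15 and 0.49) and Me1, a further gene of the list (0.40 and 0.38). Over all probes tested 7.57% were higher without overlap. Gclm, the modifier subunit of glutathione synthesis, was too dim to test.

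Macrophages also carry Hmox1. Their markers had no common direction, and the part of macrophages in the Hmox1 values was not tested. Of 13 macrophage markers 10 were tested, 4 higher and 6 lower, with a median log2 difference of -0.09. Itgam, 1 of the 4 higher, was well above background on 3 dibromoethane arrays and 1 control array. It thus entered the test through the dibromoethane group alone. The mean log2 level of the 10 markers was 0.49 to 0.85 on dibromoethane arrays and 0.62 to 0.81 on control arrays, where the ranges overlapped. Cd163 and Vsig4, markers of resident macrophages, were above background on 0 arrays. The complement genes C1qa, C1qb and C1qc, which macrophages express, lay lower without overlap, at -0.54, -0.48 and -0.41. Over all features 12.1% were lower without overlap.

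By the root mean square difference between log2 profiles, each centred on its own mean over the 6 arrays, the 5 genes most like Hmox1 among 11414 named genes included Ccl9 (0.409), Ugt1a9 (0.414), Amigo2 (0.427) and Slc51a (0.432). Ccl9, a chemokine, read -1.98, -2.91 and -2.89 in treated rats and -4.51, -3.87 and -3.94 in control rats, without overlap. The genes most like Hbb were Bfsp1 (0.0598), Rac2 (0.0652) and the alpha-globin Hba-a3 (0.0678). Rac2, a small GTPase of blood cells, read 1.64, 1.85 and 1.67 in treated rats and 1.95, 2.00 and 2.21 in control rats. The measure weighs amplitude as well as shape, and with 6 arrays it is a description.

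**Figure D4:**
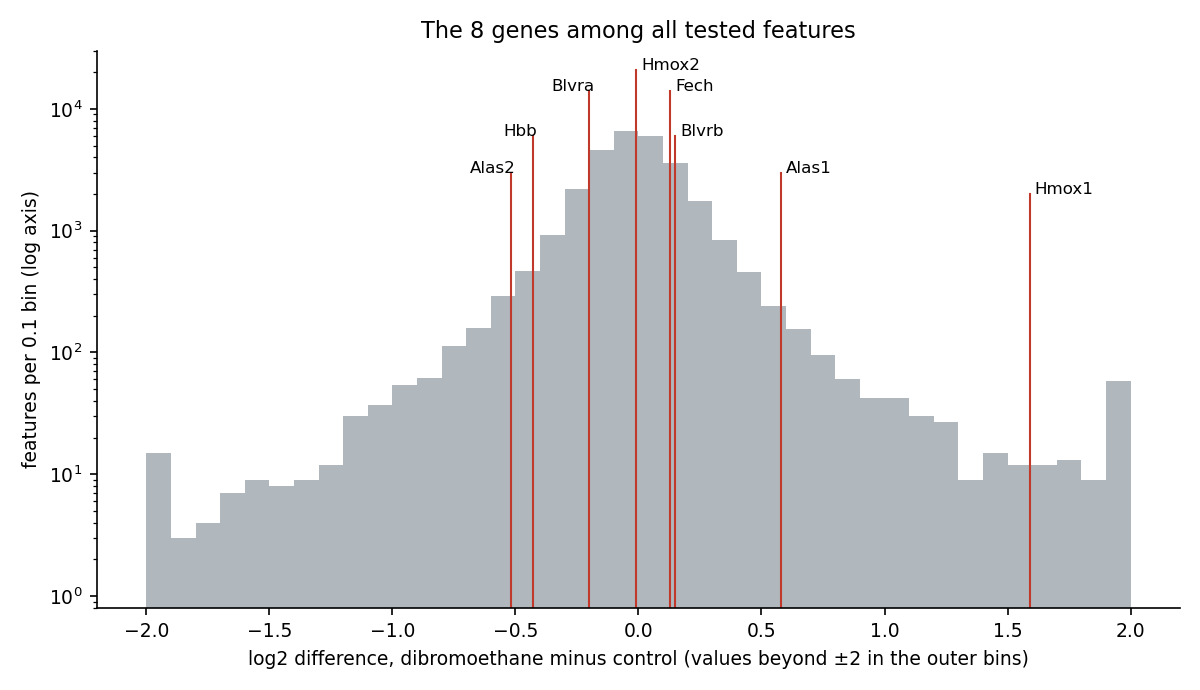
Number of the 28961 tested features in each bin of log2 difference, dibromoethane minus control, on a log axis, with values beyond the ends gathered in the outer bins; red lines mark the 8 genes and their heights have no meaning. Hmox1 at 1.59 lies in the sparse right tail, Alas1 at 0.58, Hbb at -0.43 and Alas2 at -0.52 lie on the flanks, and the other 4 genes lie in the bulk.

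Set against the whole array, 361 features (1.25%) had an absolute log2 difference above 1, and Hmox1 was the only gene of the 8 among them. The median log2 difference of all tested features was -0.015 and 46.5% were positive, so the scale itself was close to centred. Of the 8 genes 4 were positive and 4 negative, with a median of 0.06.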

How the data were processed

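Renal cortex RNA of 3 dibromoethane and 3 control rats was labelled with Cy3 and read on Agilent arrays of a single colour, per the labels' protocols. The scanner tables deposited by the authors give the intensity of each spot, from which Agilent Feature Extraction 10.7.1.1 had already subtracted background on a grid of genome build rn4, per the file headers. The submitters' processing notes name Feature Extraction 10.7. The deposited series table also holds an intensity for each probe. It equals the scanner signal over that array's 75th percentile (r = 1 over all probes, for each of 6 arrays), linear and not centred, with column medians of 0.102 to 0.112.

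Of 62976 spots, 61453 were analysed, without 1439 control spots and 84 spike-in probes, and 1 to 11 outlier spots per array counted as missing. Values were log2 of the processed signal less the array's 75th percentile. Unversioned accessions were looked up in a RefSeq table of GRCr8, for names and promoters only, so that 28206 probes (45.9%) carry 1 of 15645 symbols. Every probe of the 8 genes is shown. The fit across features kept, per gene, the probe of highest mean, and required signal well above background on every array of 1 group or of both, which left 28961 features. It used limma 3.58.1 in R 4.3.3 (lmFit, then eBayes), two-sided and without covariates, with Benjamini-Hochberg adjusted p-values called at 0.05, and was tested on simulated data. With 3 arrays per group, their number limits the precision. Pairs of arrays correlated at r = 0.989 to 0.993 within a group and 0.988 to 0.992 across groups, over features, which are not independent replicates.

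The members and the gene lists were chosen with earlier results of these data known. Named were every probe of the 8 genes, genes of the haem synthesis and red cell lists, set representatives of the transport, iron, regulator and NRF2 lists, and the genes nearest in profile to Hmox1 (5) and Hbb (3). Markers named singly, Slc39a14, Aco1, Mafk and the red cell genes given with values were picked out after their values were seen. Some genes that these rules name are not reported here. The alternatives were normexp correction (offset 50, on the median spot signal, since the scanner tables used here have no mean signal), quantile normalization, median centring, no filter or one on all 6 arrays, other rules for a gene's probes, the slide as a block (fixed, random, or with slide 3 left out), the replicate block, another moderation in eBayes, the series table, and leaving out arrays singly. A block for scan day, and leaving out the 2 arrays lowest and highest in liver transcripts, were chosen after seeing the data.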

Additional observations from a re-analysis of the deposited data

How the results depend on the processing

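None of the 8 genes passed an adjusted p of 0.05 in limma under any of the 20 alternatives that were fitted across all features, and 4 or 5 had an unadjusted p under 0.05 in each. The count of all features that passed, 9, was 5 with normexp, 2 without a filter, 17 with trend and robust, 2 with scan day as a block, and 0 with slide as a fixed block or with only slides that held both groups (3511 at an unadjusted p under 0.05 in both); it was 1 to 8 when 1 array was left out. Deviations from the group means correlated at r = -0.19, 0.26 and 0.16 between same-numbered rats, and at -0.32 to 0.20 between differently numbered rats. Whether the replicate numbers pair the rats cannot be told from these values. With the replicate number as a block 0 features passed (3462 at an unadjusted limma p under 0.05) and 0 of the 8 genes. The cause of these shifts was not tested.

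Within slide 1 Hmox1 was 1.14, Alas1 0.37, Alas2 -0.23 and Hbb -0.24; within slide 2 Alas1 was 0.76, Alas2 -0.89, Hbb -0.71, Fech 0.01, Blvra 0.36 and Hmox2 0.06. Hmox2 was 0.04 with quantile normalization. Leaving out 1 array gave 1.39 to 1.88 for Hmox1, 0.53 to 0.67 for Alas1, -0.62 to -0.41 for Alas2, -0.48 to -0.36 for Hbb, -0.45 to -0.02 for Blvra, 0.03 to 0.23 for Blvrb, 0.08 to 0.19 for Fech and -0.05 to 0.01 for Hmox2. Hmox1, Alas1, Alas2, Hbb, Blvrb and Fech kept their sign under every alternative run. Several alternatives leave these differences of group means unchanged by construction: the filters, the replicate and scan day blocks and the other moderation. The median of the other red cell genes, -0.19, was -0.06 with normexp, -0.08 without a filter, -0.08 with the filter on all 6 arrays, where fewer or more genes enter, and -0.31 without the 2 arrays lowest and highest in liver transcripts. Leaving out 1 array gave -0.28 to -0.15 for it and -0.01 to 0.06 for the haem synthesis median.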
